A study of Mus musculus with 17 samples.

Results

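The mitochondrial ribosomal proteins are the protein parts of the ribosome inside the mitochondrion. They were taken here as all probe sets whose single gene symbol on the array platform starts with Mrpl or Mrps followed by a digit. That rule used no measured value and found 127 of the 22690 probe sets, for 74 of the 12393 genes that had a single-symbol probe set. Of these genes 47 have an Mrpl symbol (large subunit) and 27 an Mrps symbol (small subunit). The reference gene table holds 78 such protein-coding symbols, and Mrpl30, Mrpl53, Mrps10 and Mrps27 are not analysed here. In the hypothalamus of STZ-treated and ob/ob mice none of the family's probe sets passed the test in any comparison, and most of its genes lay within 0.1 log2 of control. Few of all probe sets tested passed either, 0.0516% in STZ against control, 0.125% in ob/ob against control and 0.0368% in ob/ob against STZ. Within 0.1 of control lay 73% of the family's genes in each model, beside 69.7% of all genes in STZ and 64.3% in ob/ob.

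Hypothalamic RNA was measured in 17 male C57Bl/6 mice of 9 weeks on Affymetrix arrays, with 1 array per hypothalamus. The control group was 6 wildtype mice injected with vehicle. The STZ group was 6 wildtype mice given 1 intraperitoneal injection of 200 µg/g streptozotocin, which kills the insulin-producing beta cells. The third group was 5 ob/ob mice, which lack the satiety hormone leptin and become obese. The labels describe no injection for the ob/ob mice and no time between injection and collection, so genotype and injection cannot be told apart in ob/ob against control. The series title names the control of brain cholesterol metabolism by diabetes and insulin as the study's subject, and the family was not its stated target. Both comparisons with control use the same 6 control arrays. The p-values reflect only the spread between the arrays of a group.

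Mitochondrial DNA encodes a small set of proteins, all of them core subunits of the respiratory chain and ATP synthase, and the mitochondrial ribosome is the only machine that translates them. Its RNAs come from mitochondrial DNA, but all its proteins are encoded in the nucleus, made on cytosolic ribosomes and imported. Some descend from bacterial ribosomal proteins and others were added during the evolution of mitochondria. Neurons depend heavily on oxidative phosphorylation, and hypothalamic neurons that sense leptin and insulin are known to change their mitochondria with nutritional state. Some symbols mislead. The proteins of Mrps30 and Mrps18a sit in the large subunit, and that of Mrps36 is now known as a part of the 2-oxoglutarate dehydrogenase complex. They were kept because the rule goes by symbol.

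Nuclear genes for mitochondrial proteins are classical targets of NRF1 and of the ETS-family factor GABP, so the promoters of the family were searched for their letters. RefSeq promoters (GRCm38.p6, 250 bases before to 50 after the gene's start) were found for 65 of the 74 genes, some with several starts. The NRF1 palindrome, which reads the same on both strands and stands in capitals in the Mrpl9 and Mrpl32 sequences below, was in 3 of the 65 (4.62%), Mrpl9, Mrpl32 and Mrpl39, against 2.41% of 6507 tested genes and 1.07% of all 27025 genes of the table. The ETS letters CCGGAAG, or CTTCCGG on the other strand, were in 24 of 65 (36.9%), against 20.9% of tested genes and 9.93% of all genes. They were in 27.9% of oxidative phosphorylation genes and in 51.3% of cytosolic ribosomal protein genes. CCAAT or ATTGG was in 38.5% of the family and 43% of tested genes, and TATAAA or TTTATA in 7.69% and 8.73%. The median GC content of the family's promoters was 58%, against 61.3% in tested genes. No family gene held both the NRF1 and the ETS letters. A match is a run of letters, not a shown binding site, and no test was made of these shares. The 5 windows that follow run from 120 bases before to 30 after the start. They were chosen after the values were seen. Mrpl9 and Mrpl32 show the NRF1 letters, and Mrpl43, Mrpl52 and Mrpl58, whose signals are described further on, each hold the ETS letters at more than 1 place. Capitals mark the match. Mrpl9 lies at chr3:94443216-94443365 (plus strand), Mrpl32 at chr13:14613008-14613157 (minus), Mrpl43 at chr19:45006413-45006562 (minus), Mrpl52 at chr14:54426789-54426938 (plus) and Mrpl58 at chr11:115403632-115403781 (plus).
Mrpl9: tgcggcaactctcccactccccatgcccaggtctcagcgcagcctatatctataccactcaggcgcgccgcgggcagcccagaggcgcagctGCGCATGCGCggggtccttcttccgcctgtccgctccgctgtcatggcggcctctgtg
Mrpl32: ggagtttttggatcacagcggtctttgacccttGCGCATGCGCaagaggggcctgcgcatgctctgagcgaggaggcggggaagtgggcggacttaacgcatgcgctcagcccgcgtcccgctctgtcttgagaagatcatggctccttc
Mrpl43: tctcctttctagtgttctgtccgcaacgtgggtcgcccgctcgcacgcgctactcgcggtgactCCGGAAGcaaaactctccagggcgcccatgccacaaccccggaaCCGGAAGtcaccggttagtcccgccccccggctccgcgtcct
Mrpl52: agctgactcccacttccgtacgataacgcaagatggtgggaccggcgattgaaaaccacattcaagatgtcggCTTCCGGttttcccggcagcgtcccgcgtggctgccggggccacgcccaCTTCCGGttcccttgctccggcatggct
Mrpl58: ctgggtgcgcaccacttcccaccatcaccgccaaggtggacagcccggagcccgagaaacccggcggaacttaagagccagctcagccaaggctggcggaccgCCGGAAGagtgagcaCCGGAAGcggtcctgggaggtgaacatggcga

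In Mrpl9 the NRF1 letters began at -28 from the start, and in Mrpl32 at -87. The ETS letters began at -56 and -12 in Mrpl43, at -47 and 3 in Mrpl52, and at -17 and -2 in Mrpl58. Of the 21 genes named by the rule for named genes that had a promoter, 9 held the ETS letters. None of the letters searched was found in the windows of Mrpl55, Mrpl49, Mrpl44 and Mrpl1.

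Values are MAS5 signals, scaled by the authors to a common mean over probe sets on each array. They rise with the amount of a transcript, but each probe set has its own response. Differences are therefore taken between groups, and a ranking of genes or lists by signal only describes their probe sets. A probe set was tested where its mean over all arrays was above the 40th percentile (a geometric mean signal of 435), which left 13576 of the series and 109 of the family's 127. The filter used the mean over all groups. The other 18 had means between 24.5 and 395. Every one of the 74 genes kept at least 1 probe set, 49 of them exactly 1 and 25 several. A gene was represented by its brightest tested probe set, with probe sets marked _x_at, which can bind related sequences, taken only where no other was tested. Differences are log2 fold changes from a limma fit with their standard error (SE), and p-values were adjusted by Benjamini-Hochberg over all 13576 probe sets.

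Of the 3 brightest genes, Mrpl13 and Mrpl27 were near level between the groups on their representative probe sets. Mrpl41 varied widely among the controls and is described further on. Mrpl13, a large-subunit protein with a bacterial homologue, had control signals of 3703.7 to 4746.4 (median 4389.6) and STZ signals of 4290.2 to 4528.6 (median 4472.6). In ob/ob mice Mrpl13 gave 4415.3, 4365.1, 4623.1, 4711.8 and 3897.2. The 3 groups lay over each other, and the geometric means were 4328, 4446 and 4393. The other tested probe sets of Mrpl13, both dimmer, were below control, at -0.11 and -0.095 in STZ and at -0.047 and -0.099 in ob/ob. Mrpl27, also a homologue of a bacterial large-subunit protein, had control signals of 3757.6 to 4379.6 (median 4266.4) and STZ signals of 3740.0 to 4466.2 (median 4081.2). Its ob/ob signals of 4191.1, 4346.5, 4460.9, 4331.5 and 3712.1 covered the same range. The differences of Mrpl27 from control were -0.033 in STZ and 0.012 in ob/ob.

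In STZ mice no member passed the threshold. Of the 109 probe sets 0 were called higher and 0 lower (limma, adjusted p), against 7 of 13576 (0.0516%) over the series. The smallest adjusted p of a member was 0.395. At an unadjusted p under 0.05 there were 10 (9.17%), 4 higher and 6 lower, near the 8.24% of all probe sets tested (3.87% higher, 4.38% lower). The median difference over the 74 genes was -0.024, with 31 above 0 and 43 below, and that over 7990 genes tested was 0.0044. Values ran from -0.20 to 0.36, and 54 of 74 were within 0.1 of control (73%, against 69.7% of all genes).

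In ob/ob mice no member passed either. Again 0 of 109 probe sets passed in either direction, against 0.125% over the series, and the smallest adjusted p was 0.174. At an unadjusted p under 0.05 there were 8 (7.34%), 1 higher and 7 lower, below the 11.9% of all probe sets tested (5.75% higher and 6.12% lower). The median difference was -0.022, with 28 genes above and 46 below 0, and the median of all genes was 0.0053. The share below 0 was 62.2% in the family and 48.1% over all genes, and in STZ mice it was 58.1% and 48.3%. Because both comparisons share the controls, the likeness of these shares is not a separate observation.

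The direct comparison of the models, ob/ob against STZ, does not use the controls. It called 0 of 109 probe sets, against 0.0368% over the series, with a smallest adjusted p of 0.9996 among members. Members with an unadjusted p under 0.05 numbered 2 (1.83%), both lower in ob/ob, where the series had 3.93% (1.93% higher, 2% lower). In 0 members did the groups not overlap, against 0.147% of the series higher and 0.273% lower. The median difference was -0.011, against 0.0022 over all genes, and it was 0.0058 without STZ 3. Of the 74 genes, 66 (89.2%) lay within 0.1, against 76.9% of all genes.

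The intervals show what sizes of difference these arrays leave room for. The 95% interval of a gene's difference lay wholly within 0.5 log2 of 0 for 72 of 74 genes in STZ against control and for 73 of 74 in ob/ob against control (97.3 and 98.6%, against 93.9 and 92% of all genes). The exceptions were Mrpl41 and Mrps18b in STZ and Mrps18b in ob/ob, the most variable genes of the family. The median SE of a difference was 0.068 and 0.071. Differences of about 0.1 log2 were therefore not detectable gene by gene with 5 or 6 arrays a group.

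**Figure D1:**
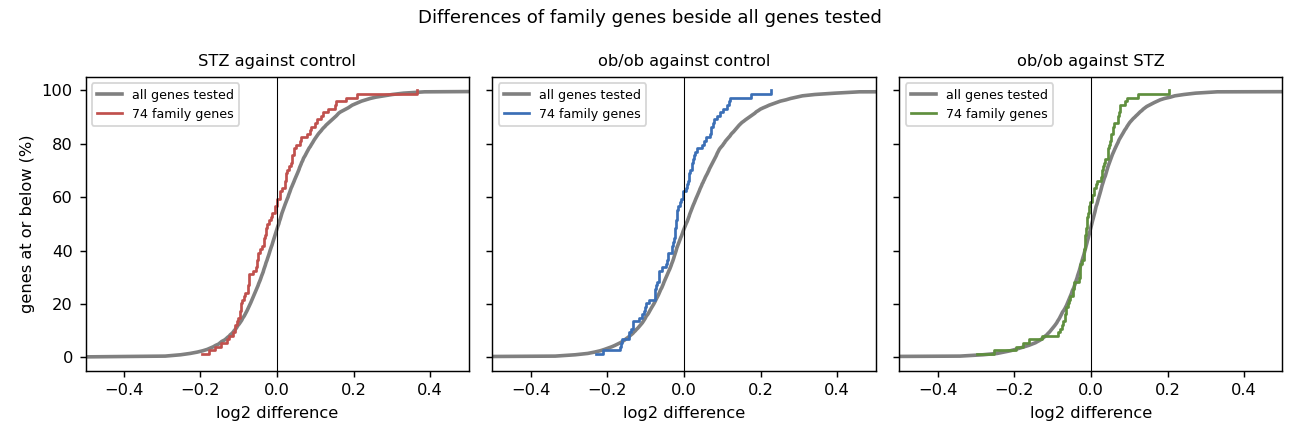
Cumulative percentage of genes (vertical axis) at or below each log2 difference (horizontal axis) for the 74 family genes (coloured steps) and all 7990 genes tested (grey line), in 3 comparisons. The coloured steps lie slightly left of the grey line around 0. The highest member was at 0.36 in STZ against control, 0.23 in ob/ob against control and 0.21 in ob/ob against STZ.

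**Figure D2:**
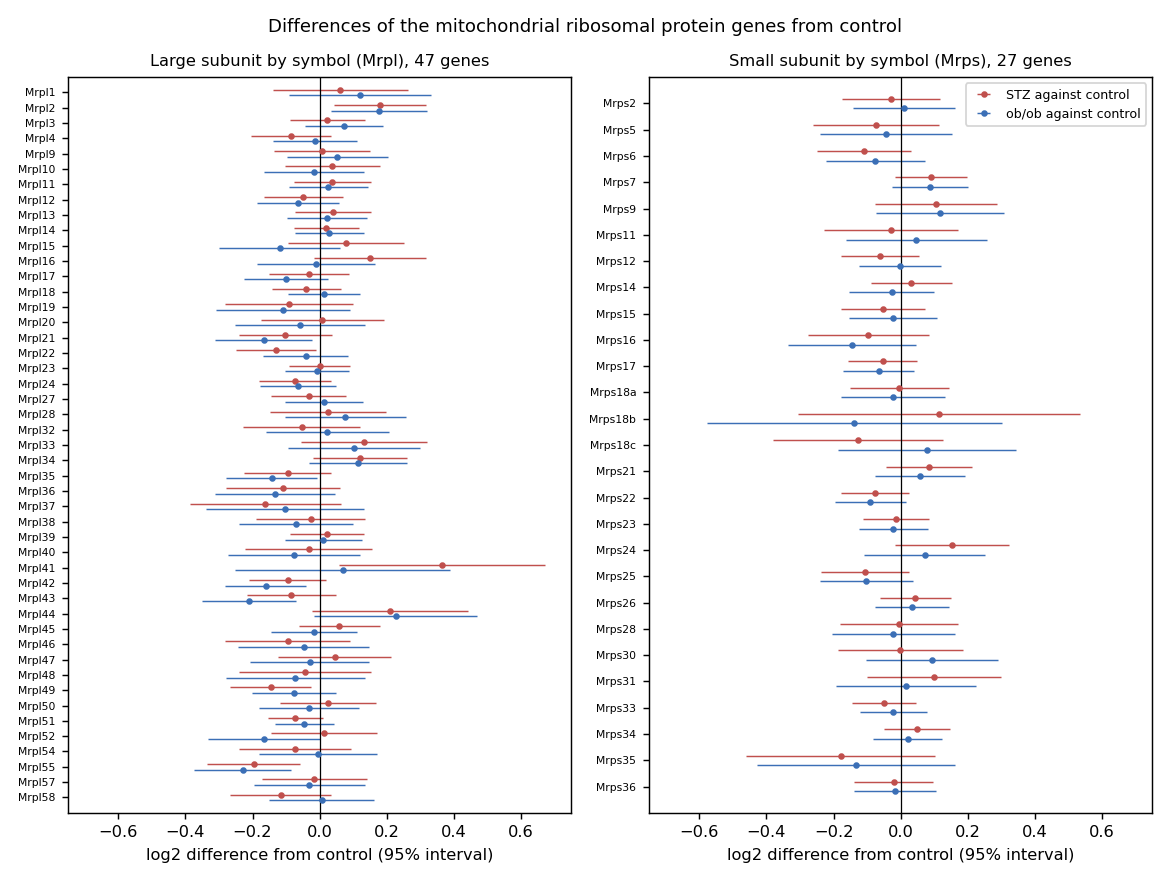
Log2 difference from control of each family gene with its 95% interval, for STZ (red) and ob/ob (blue), Mrpl genes in the left panel and Mrps genes in the right. Most intervals cross 0, and those of Mrpl41 and Mrps18b are the widest.

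Large and small subunits were alike in their medians. The 47 Mrpl genes had a median of -0.026 in STZ (22 above 0, 25 below) and -0.030 in ob/ob (17 and 30). The 27 Mrps genes had -0.021 (9 and 18) and -0.022 (11 and 16). Of the probe sets tested, 72 were Mrpl and 37 Mrps. In STZ 9 Mrpl (12.5%) and 1 Mrps (2.7%) had an unadjusted p under 0.05, against 8.24% of all probe sets tested. In ob/ob 7 Mrpl (9.72%) and 1 Mrps (2.7%) did, against 11.9% of all. No test of a difference between the subunits was made.

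By the number in the symbol alone, 42 genes were counted as homologues of bacterial proteins (Mrpl up to 36, Mrps up to 21). The other 32 were counted as mitochondria-specific. The classes were not checked protein by protein, so this rule can misplace single genes. The homologues had medians of -0.016 in STZ (20 above 0, 22 below) and -0.0096 in ob/ob (19 and 23). The mitochondria-specific genes had -0.024 (11 and 21) and -0.030 (9 and 23). Among the 20 mitochondria-specific large-subunit genes, 16 (80%) were below control in ob/ob mice (median -0.046) and 13 (65%) in STZ mice (median -0.038). The share below control in ob/ob was 51.9% for the large-subunit homologues, 60% for those of the small subunit and 58.3% for mitochondria-specific Mrps genes. In STZ these shares were 44.4, 66.7 and 66.7%. Over all genes tested they were 48.1% in ob/ob and 48.3% in STZ. No family gene passed the test, and no test was made of the classes against each other.

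Several members with the largest values belong to the mitochondria-specific proteins of the large subunit. Mrpl55, one of these, had control signals between 1656.6 and 1822.2 (median 1698.8) and STZ signals between 1347.2 and 1755.1 (median 1477.8). Its ob/ob signals were 1436.5, 1336.4, 1600.4, 1453.9 and 1521.2. All ob/ob arrays were below all control arrays, and 5 of 6 STZ arrays were below the control mean. The difference was -0.23 ± 0.069 (SE, n = 5 and 6) in ob/ob and -0.20 ± 0.066 (n = 6 and 6) in STZ, with limma adjusted p of 0.174 and 0.395. This was the only member without overlap between ob/ob and control (0.917% of the family, against 1.07% of all probe sets tested in that direction), and 0 members were wholly higher (0.84% of the series).

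Mrpl43, also a mitochondria-specific large-subunit protein, had control signals between 2284.6 and 2819.1 (median 2516.8) and STZ signals between 2199.5 and 2718.8 (median 2353.8). In ob/ob the 5 arrays gave 1953.8, 2315.3, 2234.2, 2155.6 and 2227.0. The highest ob/ob array passed the lowest control arrays, so the groups overlapped. The difference was -0.21 ± 0.067 (adjusted p = 0.196) in ob/ob and -0.085 in STZ.

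Mrpl42, another of this class, had control signals of 3462.0 to 4155.3 (median 3972.7) and STZ signals of 3297.2 to 3944.2 (median 3619.3). Its ob/ob signals were 3446.8, 3535.6, 3518.5, 3680.8 and 3220.0, all below the control mean but overlapping with the lowest control array. The difference of Mrpl42 was -0.16 ± 0.057 in ob/ob (adjusted p = 0.260).

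Mrpl49, mitochondria-specific and of the large subunit, was the steadiest of these in controls, from 1277.7 to 1326.5 (median 1305.0). Its STZ signals ran from 1096.9 to 1246.3 (median 1186.5), and all lay below every control array. The ob/ob signals, 1124.2, 1160.3, 1257.0, 1339.4 and 1315.0, lay on both sides of the controls. The STZ difference was -0.15 ± 0.057 (adjusted p = 0.5005). This was the only member without overlap in STZ against control (0.917%, against 0.302% of all probe sets in that direction), and 0 were wholly higher (0.265% of the series).

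**Figure D3:**
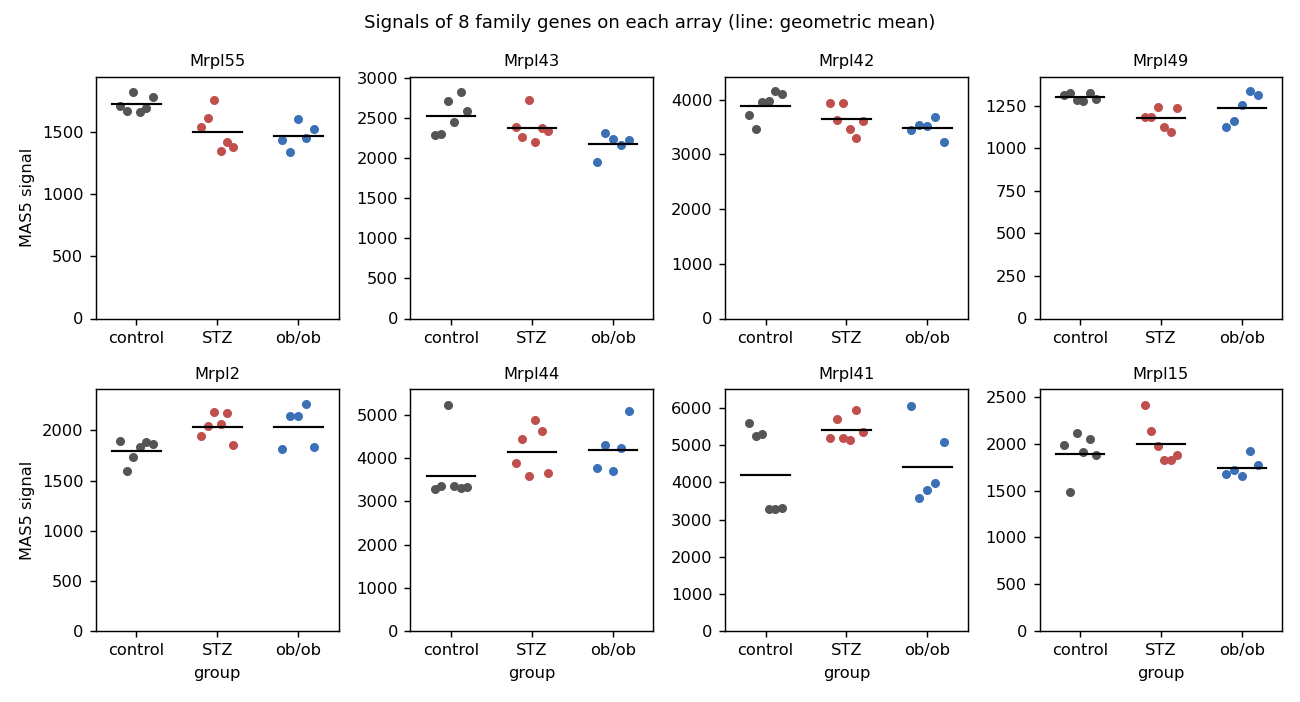
MAS5 signal on each array (points) by group for Mrpl55, Mrpl43, Mrpl42, Mrpl49, Mrpl2, Mrpl44, Mrpl41 and Mrpl15, with the geometric mean of each group as a line and the vertical axis from 0. For Mrpl55 every ob/ob point lies under every control point, and for Mrpl41 the control points fall into a low and a high set.

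On the higher side stood Mrpl2, a bacterial homologue that lies near the peptidyl transferase centre, where peptide bonds are made. Its control signals ran from 1599.1 to 1890.5 (median 1849.4) and its STZ signals from 1850.7 to 2181.4 (median 2051.6). The ob/ob arrays gave 1812.8, 2146.2, 2148.9, 2261.6 and 1831.5. All 6 STZ and all 5 ob/ob arrays were above the control mean, but the lowest of each overlapped with the controls. The difference was 0.18 ± 0.065 in STZ (adjusted p = 0.456) and 0.18 ± 0.069 in ob/ob (adjusted p = 0.307).

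Mrpl44, a mitochondria-specific large-subunit protein with an RNase III-like fold, had 1 control array apart from the others. Of the 6 control arrays 5 lay between 3287.3 and 3354.8, and control 3 was at 5231.6. STZ signals ran from 3584.6 to 4888.3 (median 4161.9), and the ob/ob signals were 3774.9, 4313.3, 3709.2, 4233.0 and 5098.2. Every STZ and ob/ob array was thus above those 5 controls but below control 3, so with all 6 controls the groups overlapped. How many of all probe sets would separate with 1 array set aside is not given here. The difference was 0.21 ± 0.11 in STZ and 0.23 ± 0.12 in ob/ob, and without control 3 it was 0.32 (adjusted p = 0.301) and 0.34 (adjusted p = 0.163).

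Mrpl41, mitochondria-specific, was among the 3 brightest and had the largest STZ value of the family. Its control arrays fell apart, with controls 1, 2 and 3 at 5617.3, 5241.4 and 5317.5 and controls 4, 5 and 6 at 3278.1, 3272.8 and 3312.2. STZ signals ran from 5149.0 to 5949.6 (median 5283.8), level with the higher controls. In ob/ob mice the signals were 6060.8, 3578.4, 3801.7, 3986.2 and 5097.6. The STZ difference was 0.36 ± 0.15 (adjusted p = 0.509), and ob/ob against STZ was -0.30 ± 0.15. The other tested probe set of Mrpl41 gave control signals of 3048.4 to 3856.1, STZ signals of 3047.1 to 3809.7 and an STZ difference of 0.074, without that split.

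Other members of the large subunit had smaller or less steady values. Mrpl21, a bacterial homologue, was at 1285.1 to 1725.6 (median 1560.2) in controls and 1362.0 to 1580.4 (median 1398.5) in STZ. Its ob/ob signals were 1441.2, 1387.1, 1402.9, 1290.7 and 1327.8, all below the control mean, for a difference of -0.17 ± 0.069. Mrpl52 and Mrpl37 are mitochondria-specific. Mrpl52 had control signals of 2509.1 to 3110.3 (median 2731.8), STZ signals of 2444.4 to 3068.0 (median 2872.1) and ob/ob signals of 2169.5, 2701.6, 2807.5, 2332.7 and 2338.1. Its difference was -0.17 ± 0.080 from control and -0.18 ± 0.080 from STZ, and all 3 of its tested probe sets were below control in ob/ob. Mrpl37 was at -0.16 ± 0.11 in STZ, where its signals ran from 671.5 to 1067.8 against control signals of 806.2 to 1152.7. Without STZ 4 that difference was -0.074, and without control 5 it was -0.23.

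Mrpl1, a bacterial homologue, was at 0.12 in ob/ob, with signals of 877.2, 922.9, 732.9, 739.6 and 870.0 against 644.4 to 832.0 in controls. Mrpl16, also a homologue, was above the control mean in all 6 STZ arrays (2559.3 to 3149.6, against 2087.0 to 2923.5 in controls). Its ob/ob signals were 2293.8, 2875.8, 2307.9, 2539.8 and 2091.4, which put ob/ob against STZ at -0.16. Mrpl22, which lines the tunnel through which the new chain leaves, and Mrpl58, a peptidyl-tRNA hydrolase that frees stalled ribosomes, were the highest genes with an Mrpl symbol in ob/ob against STZ, at 0.089 and 0.12. In both the STZ mean lay below the control mean, 2008 against 2198 for Mrpl22 (unadjusted p under 0.05) and 1879 against 2037 for Mrpl58. Mrpl35, chosen after its values were seen, completed the genes with an unadjusted p under 0.05 in ob/ob against control on their representative probe set, at -0.14.

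The small subunit held few large values, and none of its genes reached an unadjusted p under 0.05 on its representative probe set. Mrps24 was at 0.15 ± 0.082 in STZ. All 6 of its STZ arrays (1928.6 to 2182.3, median 2108.1) were above the control mean and within the control range of 1578.2 to 2227.3. Mrps35, mitochondria-specific, was at -0.18 ± 0.13 in STZ, and its ob/ob arrays were scattered, at 893.6, 1470.0, 1298.9, 1223.8 and 840.1. Mrps9, a bacterial homologue, was at 0.12 in ob/ob, with signals of 1058.3, 987.3, 1062.5, 1219.4 and 1067.4 against a control median of 1022.1, and at 0.053 without control 2. These values are no larger than about 2 SE.

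Mrps18b and Mrps18c, related homologues of 1 bacterial protein, were the extremes of the small subunit between the models. Mrps18b was the most variable gene of the family, from 434.0 to 1042.2 in controls and 542.8 to 1089.6 in STZ, with ob/ob at 825.8, 816.7, 615.6, 650.3 and 662.7. Its difference between ob/ob and STZ was -0.25 ± 0.21, which became -0.018 with markers of neighbouring regions as a covariate and -0.38 without STZ 4. Mrps18c had STZ signals of 990.1 to 1852.2 (median 1271.0) and ob/ob signals of 1943.9, 1344.7, 1635.2, 1436.8 and 1263.2, a difference of 0.21 ± 0.13 that was 0.11 without ob/ob 1 and 0.12 without STZ 6. Mrps30, whose protein sits in the large subunit, was at 0.095 in the same comparison, at 0.048 without ob/ob 5, 0.050 without STZ 3 and 0.15 without ob/ob 2. None of these was larger than 2 SE.

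Where a gene had several tested probe sets, they often disagreed in sign. Of the 25 such genes, all probe sets had 1 sign for 14 in STZ, 16 in ob/ob and 11 in ob/ob against STZ. Their values differed by over 0.3 for 2 genes in STZ and for 1 in each of the other comparisons. Mrpl15, a bacterial homologue, had 5 tested probe sets with STZ differences from -0.16 to 0.28. The highest belonged to a dim _x_at probe set, with 446.2 to 560.6 in controls and 458.9 to 783.1 in STZ. Its representative had control signals of 1491.0 to 2120.3 (median 1952.2), STZ signals of 1830.8 to 2414.6 (median 1930.8) and ob/ob signals of 1673.4, 1719.5, 1654.6, 1921.2 and 1778.9. On that probe set ob/ob against STZ was -0.20 ± 0.086.

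Mrpl51, mitochondria-specific, had 1 bright probe set with very steady signals, 3668.0 to 4028.9 in controls and 3581.4 to 3698.1 in STZ, and a difference of -0.073. A dim one ran from 512.9 to 620.4 in controls and from 329.5 to 585.4 in STZ, a difference of -0.43 with an unadjusted p of 0.012. Mrps25, also mitochondria-specific and chosen after its values were seen, gave an ob/ob difference of -0.10 on its representative. Its other tested probe set gave -0.23, with ob/ob signals of 731.5, 682.4, 691.0, 764.6 and 759.2 against 755.6 to 941.3 in controls. The labels do not say which transcripts each probe set reads, and the cause of these disagreements was not tested.

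**Figure D4:**
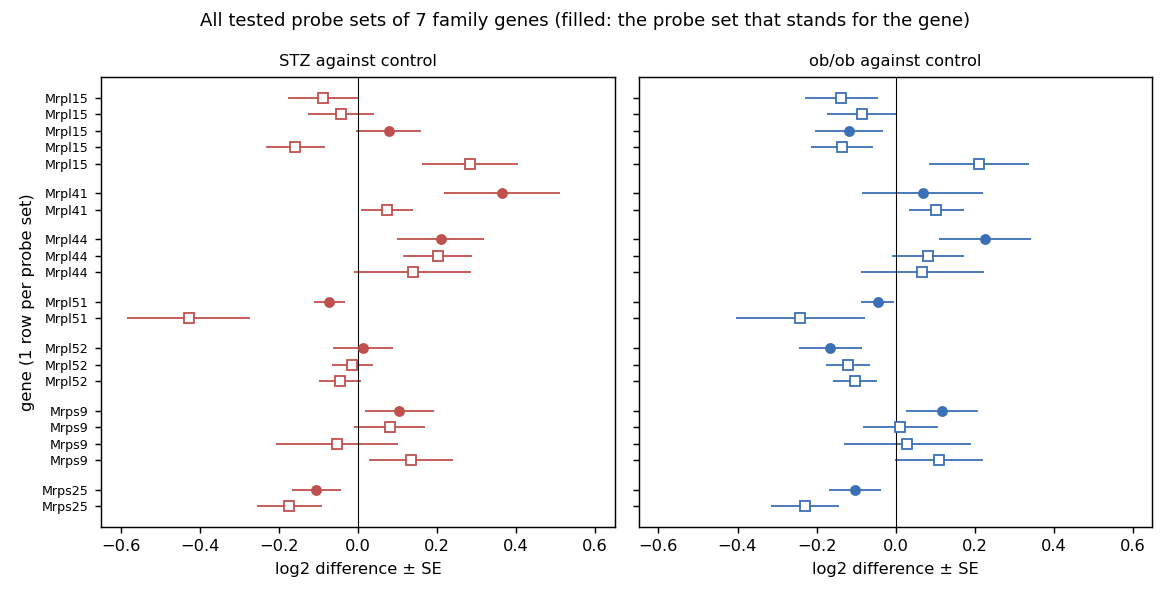
Log2 difference from control ± SE for every tested probe set of Mrpl15, Mrpl41, Mrpl44, Mrpl51, Mrpl52, Mrps9 and Mrps25, with filled symbols for the probe set that stands for the gene. The probe sets of Mrpl44 and of Mrps25 lie on 1 side of 0 in both panels, while those of Mrpl15 lie on both sides.

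Summed over genes the family was flat. The mean log2 signal of the 74 genes was 10.93 ± 0.034 in controls (SD, n = 6), 10.92 ± 0.036 in STZ (n = 6) and 10.90 ± 0.036 in ob/ob (n = 5). Single arrays ran from 10.88 to 10.96, from 10.88 to 10.98 and from 10.87 to 10.95, so the groups overlapped. The gaps between the group means were smaller than the SD within a group. In whole tissue, fewer cells of a type and less RNA per cell cannot be told apart.

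The genes of the family varied little and only weakly together. The median SD within groups was 0.11 log2, against 0.13 over all genes tested, 0.083 for oxidative phosphorylation subunits and 0.091 for cytosolic ribosomal proteins. It ran from 0.052 for Mrpl51 to 0.40 for Mrps18b. Over the 2701 pairs of family genes, the median correlation of deviations from the group means was 0.086, and 60.7% of pairs were positive. It was 0.29 for pairs of oxidative phosphorylation genes, 0.28 for cytosolic ribosomal proteins and 0.00063 over all genes. These correlations are a description over 17 arrays that share their scaling, and signals of the other lists were brighter (median signal 8809 and 14922 against 1918), whose part in the correlation was not tested.

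**Figure D5:**
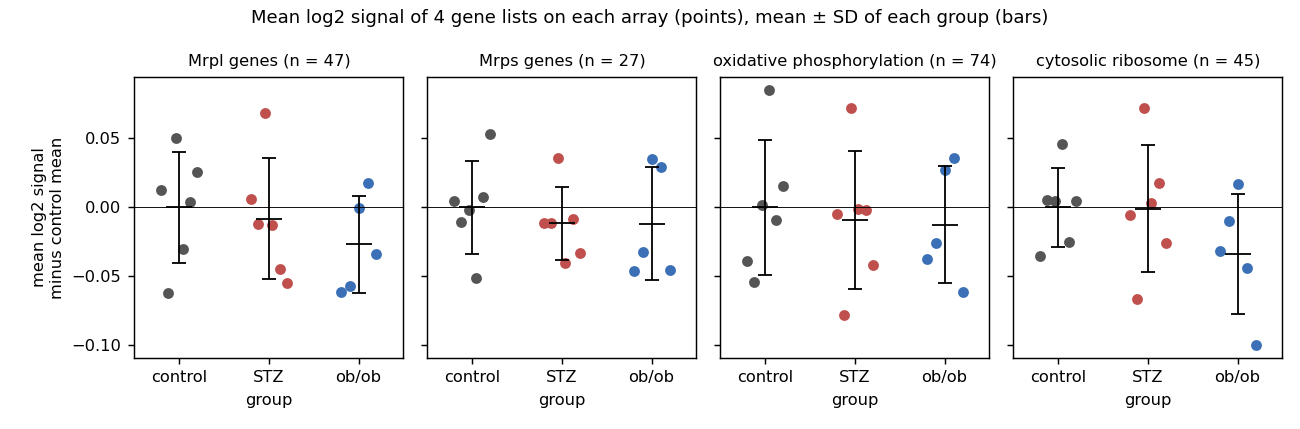
Mean log2 signal of the Mrpl genes, the Mrps genes, 74 oxidative phosphorylation subunits and 45 cytosolic ribosomal proteins on each array (points), minus the mean of the control arrays, with the mean ± SD of each group. Groups overlap in all 4 panels, and all points lie within about 0.1 log2 of the control mean.

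None of the family's partners was called either, where 0.0516% of all probe sets tested were called in STZ and 0.125% in ob/ob. The nuclear-encoded oxidative phosphorylation subunits, apart from those of the Sdh genes, assemble with products of the mitochondrial ribosome. Their medians were -0.016 in STZ (26 of 74 above 0) and -0.025 in ob/ob (28 of 74), with 0 of 133 probe sets called by limma. At an unadjusted p under 0.05 there were 4 in STZ (3.01%) and 10 in ob/ob (7.52%), against 8.24 and 11.9% of all probe sets tested. The cytosolic ribosomal proteins had 0.0098 in STZ (25 of 45 above 0) and -0.032 in ob/ob (9 of 45), also with 0 of 81 called. An unadjusted p under 0.05 was reached by 1 (1.23%) and 5 (6.17%) of their probe sets. The median of the cytosolic genes between ob/ob and STZ was -0.039, with 38 of 45 below 0, where the mitochondrial family had 43 of 74. No test was made of the difference between the lists.

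Of 6 other symbols listed for mitoribosomal proteins 4 were tested and 0 called. Another of them, Ict1, is an older symbol of Mrpl58, already a member. Dap3, a GTP-binding protein of the small subunit, was at -0.17 and Chchd1, also of the small subunit, at 0.16 in STZ, with unadjusted p of 0.027 and 0.036. In ob/ob they were at -0.0014 and 0.042, and there Ptcd3 and Gadd45gip1 had the smallest p, at -0.055 and 0.040. Among 12 translation factors 6 were tested and 0 called, with 1 probe set in STZ and 2 in ob/ob at an unadjusted p under 0.05. Mrrf, the factor that recycles the ribosome after a protein is finished, had the largest values, -0.31 ± 0.093 in ob/ob (adjusted p = 0.176) and -0.22 ± 0.089 in STZ (adjusted p = 0.508). Next by p were Gfm1 at -0.067 in STZ and Mtif2 at -0.061 in ob/ob.

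Assembly factors and enzymes that modify ribosomal RNA numbered 31, of which 18 were tested and 0 called (4 probe sets in STZ and 2 in ob/ob at an unadjusted p under 0.05). Their medians were -0.0014 in STZ and 0.026 in ob/ob. Mterf3 and Fastkd2, which act on mitochondrial RNA and ribosome assembly, were at -0.15 and -0.22 in STZ, and in ob/ob Tfb1m and Mtg1 had the smallest p, at -0.16 and 0.17. The 9 tested tRNA synthetases of 19 had medians of -0.0050 in STZ and 0.0036 in ob/ob. For mitochondrial transcription and RNA handling 23 symbols were listed, some of them 2 names of 1 gene. The 17 tested there had -0.024 and -0.025. For membrane insertion and anchoring 5 symbols were listed, 1 of them a yeast name. The 4 tested there had 0.014 and -0.0078, and 0 were called in each list. In these 3 lists 1 probe set had an unadjusted p under 0.05 (4% of its list in STZ, against 8.24% of all tested). That was Hsd17b10, a subunit of the enzyme that cuts mitochondrial transcripts at tRNAs. It was at -0.23 in STZ against control (limma adjusted p = 0.496) and 0.24 in ob/ob against STZ (adjusted p = 0.9996). Its signals were 1232.6 to 1931.9 in controls, 1275 to 1473.8 in STZ and 1494 to 1852 in ob/ob, so all ob/ob arrays were above all STZ arrays (0.147% of the series). Those of smallest p besides were Tfam at -0.11 in STZ and Rexo2 and Slirp at -0.074 and -0.087 in ob/ob. Among the synthetases they were Fars2 and Sars2 at 0.13 and -0.24 in STZ and Tars2 and Kars at -0.15 and 0.059 in ob/ob. In the anchoring list they were Mrpl45 and Oxa1l at 0.059 and 0.021 in STZ, and Letm1 and Mrpl45 at -0.079 and -0.017 in ob/ob. Mrpl45, which ties the ribosome to the inner membrane, is also a member of the last list.

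Of 17 regulators of mitochondrial biogenesis 10 were tested and 0 called, with medians of 0.037 in STZ and 0.019 in ob/ob. An unadjusted p under 0.05 was reached by 0 of their 18 probe sets in STZ and 1 in ob/ob (5.56%). Over all probe sets tested the shares were 8.24 and 11.9%. The genes of the factors whose letters were searched in the promoters had values of 0.093 in STZ and -0.052 in ob/ob for Nrf1, and of -0.14 and -0.11 for Gabpa, the DNA-binding subunit of GABP. Esrra, a nuclear receptor that acts on genes of energy metabolism, was at 0.20 ± 0.077 in ob/ob (adjusted p = 0.292), and Ppargc1b followed at 0.11. In STZ the smallest p were those of Gabpb1 at -0.12 and Esrrg at 0.28. Of Ppargc1a, the coactivator of these factors, the values were 0.016 and 0.029.

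Markers of tissue and cell type were compared between the groups, and none of the lists passed after adjustment. The mean level of 10 tested hypothalamic markers of 17 was 0.21 log2 lower in ob/ob than in control (exact two-sided permutation p = 0.0065, 0.130 after Benjamini-Hochberg over 30 such tests) and 0.10 lower in STZ (p = 0.0996). Pomc, the precursor of an appetite-suppressing peptide made in the hypothalamus, was the lowest of that list, at -0.65 ± 0.12 in STZ (limma adjusted p = 0.038) and -0.75 ± 0.12 in ob/ob (adjusted p = 0.012). Without Pomc, an alternative chosen after seeing the data, the other 9 markers were at -0.040 in STZ (exact permutation p = 0.457) and -0.15 in ob/ob (p = 0.022). The 15 tested markers of striatum, cortex and thalamus were 0.31 higher in ob/ob (exact permutation p = 0.0087, adjusted 0.130) and 0.18 higher in STZ (p = 0.041, adjusted 0.204). Neighbouring-region markers ranged from 10.08 to 10.53 in controls, from 10.30 to 10.61 in STZ and from 10.51 to 10.70 in ob/ob. The mean levels of the neuron and astrocyte lists differed from control by at most 0.011. Single astrocyte markers ran from -0.26 to 0.19 in STZ and from -0.29 to 0.10 in ob/ob. Single neuron markers ran from -0.052 to 0.18 in STZ and from -0.085 to 0.18 in ob/ob. Microglial markers were 0.16 lower in ob/ob (exact permutation p = 0.022, adjusted 0.162) and 0.085 lower in STZ (p = 0.048, adjusted 0.204). Oligodendrocyte markers were 0.11 higher in ob/ob (exact permutation p = 0.136). Of 5 choroid plexus markers only Ttr was tested, with a control median of 465, an STZ median of 566 and an ob/ob median of 1028, and 1 ob/ob array was at 10811.8 (2.35 ± 0.49, adjusted p = 0.0558). Of 6 pituitary markers only Pomc, also on the hypothalamic list, was tested.

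The family was fitted again beside these marker levels. With their neighbouring-region level as a covariate, members with an unadjusted p under 0.05 numbered 5 in place of 10 in STZ and 2 in place of 8 in ob/ob, and 0 were called. The share over all probe sets in that fit is not given here, and the covariate itself differed between the groups. The lower counts are therefore not a result about the family. The family's median was then -0.0081 in STZ and 0.013 in ob/ob, so its sign in ob/ob turned. Mrpl55 was at -0.13 in STZ and -0.11 in ob/ob in that fit. What part the marker levels had in the values was not tested further.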

How the data were processed

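Biotin-labelled cRNA was made from 10 µg of RNA of each mouse, purified on columns and primed with oligo(dT), per the labels' protocols. The deposited unit is intensity: the authors gave 1 linear MAS5 signal per probe set and array, per the submitters' processing notes. Their scaling target, detection calls and genome build are not given in the sources used here. From the values, the 2% trimmed mean was 1500.4 on every array, and arrays correlated at 0.954 to 0.972 with 0 identical pairs.

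Values were converted to log2 without an offset and the 64 array controls dropped, after which 13576 probe sets passed the filter at the 40th percentile of mean log2 signal. A model of 3 group means over all 17 arrays was fitted with limma 3.58.1 (lmFit, eBayes with trend) in R 4.3.3. P-values were adjusted by Benjamini-Hochberg over all probe sets tested, with a threshold of 0.05. Marker levels were compared by exact permutation over arrays. The number of arrays limits the precision. On simulated data with the same spread, a change of 0.5 log2 was recovered for 80% of changed probe sets in STZ against control. The share was 72% in ob/ob against control and 73% in ob/ob against STZ. A change of 1 log2 was recovered for 95, 97 and 96%. How many probe sets were changed in the simulation is not given here. The Benjamini-Hochberg threshold is stricter where fewer probe sets pass, and in the series 7, 17 and 5 of 13576 did. These shares are therefore not the power for a member of the family.

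Gene symbols came from the platform annotation. Through Entrez identifiers all 127 member probe sets were found in the reference gene table, and 0 of their symbols needed an update. Named genes were, in each of the 3 contrasts, the 4 highest, the 4 lowest and the 4 of smallest p, besides the 3 brightest and those whose probe sets differed by over 0.3, which gave 24 genes. From the other lists the 2 of smallest p in each comparison with control were named, and others there (Nrf1, Gabpa, Ppargc1a) were chosen after their values were seen. The members and lists were chosen with earlier results of these data known. Shared replicate numbers in the titles were checked for pairing.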

Additional observations from a re-analysis of the deposited data

Results flagged for a closer look

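Among 75 groups of arrays checked, for the 24 named genes and the family's mean level, 6 held 1 array far from the others by Dixon's criterion, and chance alone flags about 1 in 20 groups. The signal of Mrpl44 was 5231.6 on control 3, against 3287.3 to 3354.8 on the other control arrays. For Mrpl15 control 2 was low at 1491, against 1885.9 to 2120.3, and for Mrps9 the same array was low at 795.9, against 1002.8 to 1100.1. For Mrpl37 control 5 was low at 806.2, against 1015.7 to 1152.7. Among STZ arrays, Mrpl16 was high on STZ 3 at 3149.6, against 2559.3 to 2661, and Mrps9 was high on STZ 6 at 1326.2, against 980.4 to 1080.8. No member's effect differed between the models by the test of ob/ob against STZ.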

How the results depend on the processing

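No member was called under any alternative, that is with no filter, a filter at the 60th percentile, quantile normalization, an offset of 100 before log2, only the 2 groups compared, the replicate number as a block, the marker covariate, or any 1 array left out. Members with an unadjusted p under 0.05 numbered 5 in STZ and 2 in ob/ob with the neighbouring-region covariate, against 10 and 8. The share over all probe sets in that fit is not given here. With 1 array left out they numbered 6 to 14 in STZ (6 without control 6 or STZ 5), 5 to 12 in ob/ob (5 without ob/ob 5) and 1 to 4 in ob/ob against STZ (4 without STZ 3, and 1 without STZ 2, 5 or 6 or ob/ob 3). The family's median with 1 array left out ran from -0.042 to -0.0048 in STZ, from -0.031 to -0.0092 in ob/ob and from -0.022 to 0.0058 in ob/ob against STZ. It was above 0 only in ob/ob with the covariate (0.013) and in ob/ob against STZ with the covariate (0.0074), without STZ 3 (0.0058) or without ob/ob 5 (0.00092). Of the named genes, 22 were refitted in the contrasts that named them (not Mrpl13 and Mrpl27), and each kept its sign there and stayed short of the threshold. Some values moved by over 1.5 times: with the covariate Mrpl1 was at 0.32 in ob/ob, and without control 2 Mrpl15 was at 0.0086 in STZ.

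Same-numbered arrays did not deviate together (correlations from -0.165 to 0.109, 1 of 16 over 0.1), so the numbers were not taken as pairs. With the replicate block the members with an unadjusted p under 0.05 numbered 8 in STZ, 7 in ob/ob and 3 in ob/ob against STZ, and 0 were called.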
